A study of Mus musculus with 15 samples.

Results

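Long noncoding RNAs are long transcripts that are not known to encode a protein. The 8 genes described here are Neat1, Malat1, Gas5, Snhg1, Snhg12, Mir155hg, Dleu2 and Kcnq1ot1, chosen by symbol out of the 55421 genes counted in the series. The set is named for abundant transcripts and was proposed when results from these same samples were known, so their levels are given as a description and the tests are no independent support for the choice. The samples were CD4+ T cells of C57BL/6 origin recovered from spleen or mesenteric lymph nodes (mLN) of Rag2-/- mice, which have no T or B cells of their own, 6 weeks after transfer of naive donor cells, a model of T cell driven colitis. Donors of both genotypes carried floxed Prkaa1 alleles (PRKAA1fl/fl), the gene of the catalytic AMPKα1 subunit. WT donors had no Cre and KO donors had CD4-Cre, which is already active in CD4+CD8+ thymocytes and therefore deletes the gene in all T cells that descend from them, well before transfer. Spleen gave 4 samples of each genotype, and mLN gave 4 KO samples and 3 WT samples, numbered 1, 2 and 4. Mice were 6 to 8 weeks of age at use. The labels do not say whether spleen and mLN samples of the same genotype and number came from the same recipient, so p-values measure the spread between these samples.

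The 8 genes fall into functional classes. Neat1 is the scaffold of paraspeckles, nuclear bodies that hold RNA-binding proteins, and its neighbour Malat1 concentrates in nuclear speckles beside splicing factors. Gas5, Snhg1 and Snhg12 carry small nucleolar RNAs (snoRNAs) in their introns, and their spliced transcripts are degraded when translated, by nonsense-mediated decay. Mir155hg and Dleu2 are primary transcripts of microRNAs, miR-155 in the first and miR-15a and miR-16-1 in the second, and Kcnq1ot1 is an imprinted transcript that silences neighbouring genes on the paternal chromosome. In T cells, miR-155 is induced by activation and the miR-15/16 pair restrains the cell cycle and survival.

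Reads assigned to genes numbered between 9363940 and 11283439 per library, and 58.4 to 63.4% of uniquely aligned reads were counted on no gene. Prkaa1 had 51.1 ± 3.71 counts per 1e6 gene reads (CPM) in WT spleen and 20.1 ± 1.38 in KO spleen (SD, n = 4 each), and 53.3 ± 6.57 (n = 3) and 27.7 ± 5.37 (n = 4) in mLN. The summed level of 12 T cell markers lay between 8868 and 11739 CPM, while 7 B cell markers summed to at most 10.6 CPM and 2 CD8 markers to at most 28.2 CPM. No marker was at 0 in all libraries. In each organ the WT library numbered 4 had the largest mitochondrial share of its group, 1.43% in spleen and 0.952% in mLN. It also had the largest share of reads counted on no gene, 63.4 and 60.7%.

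By reads, without regard to length, Malat1 was the highest long noncoding RNA gene, at 7048 ± 1138 CPM (SD, n = 15), and ranked 3 among all genes. Gas5 followed at 187 ± 66.5 CPM, Kcnq1ot1 at 161 ± 31.5 CPM, Dleu2 at 124 ± 33.1 CPM and Neat1 at 99.7 ± 45.0 CPM. Below Malat1, neighbours in this order had overlapping ranges of mean ± SD across the 15 libraries, and these ranges include the differences between groups. Within a group, neighbours could differ. In KO mLN Dleu2 had 164 ± 29.3 CPM and Neat1 52.0 ± 7.15 CPM (n = 4). In WT spleen the order was reversed, at 109 ± 15.6 and 153 ± 25.4 CPM (n = 4). By reads Gas5, Kcnq1ot1, Dleu2 and Neat1 held ranks 16, 22, 27 and 32 among the 7147 long noncoding RNA genes with a read. Snhg1 was far lower at 14.7 ± 5.62 CPM, Mir155hg reached 5.87 ± 2.08 CPM and Snhg12 4.48 ± 1.58 CPM, with ranks 314, 644 and 778. These ranks by reads favour long genes. Malat1 alone made up nearly all of the share that the 8 genes took. Together they held 0.625 to 0.989% of gene reads, and 0.0497 to 0.0723% without Malat1. The 5 highest long noncoding RNA genes of the annotation by reads were Malat1, AW112010, Gm42418, Gm20496 and Xist. Of the 31 such genes above Neat1, 20 share exon bases with a gene on the other strand, all of these 5 but AW112010 among them, so reads of the partner may be part of their counts and of the ranks.

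Levels between genes are comparable only per length. Divided by the union of annotated exons, Malat1 had 1009 ± 163 CPM per kilobase, Gas5 49.6 ± 17.7 and Dleu2 10.97 ± 2.92 (SD, n = 15). Snhg1, Neat1 and Mir155hg lay within each other's SD on this scale, at 4.95 ± 1.89, 4.80 ± 2.16 and 4.10 ± 1.45 CPM per kilobase. The SD is taken over all groups and so includes group differences, and the order within a group can differ. Snhg12 with 1.86 ± 0.658 and Kcnq1ot1 with 1.73 ± 0.338 CPM per kilobase closed the order and did not differ beyond their spread. The ranks among long noncoding RNA genes were then 2 for Malat1, 58 for Gas5, 284 for Dleu2, 569 for Snhg1, 582 for Neat1, 647 for Mir155hg, 1052 for Snhg12 and 1100 for Kcnq1ot1. The length decides these values for genes with very unequal transcripts. Neat1 has annotated transcripts of 20771 to 711 bases, and its level per kilobase was 4.80 with the longest and 140 with the shortest.

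**Figure D1:**
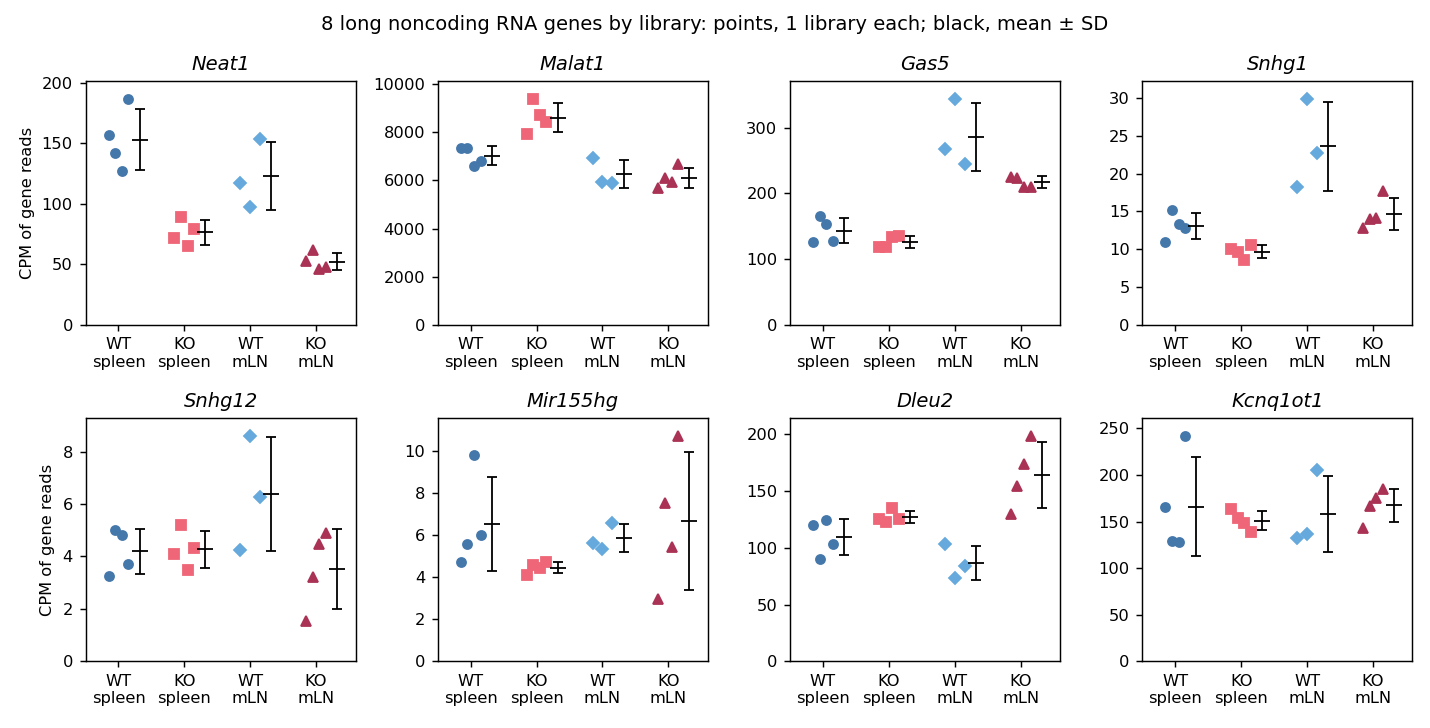
Level of each gene (y axis, CPM of gene reads, linear from 0) in the 15 libraries, by genotype and organ (x axis). Each point is 1 library and the black mark with bars gives the mean and SD of the group. Neat1 of all KO libraries lies below all WT libraries of the same organ, and Gas5 and Snhg1 of all mLN libraries lie above the spleen libraries of the same genotype.

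Which strand the counts came from bears on Malat1 and Dleu2. A read that overlaps exons of 2 genes is set aside as ambiguous when strand is ignored, so a gene wholly inside another gene's exons should then have no reads. Of 439 genes wholly inside the exons of genes on the opposite strand, 73.8% had reads, 854482 in total. Of 712 genes wholly inside exons of genes on the same strand, 0.140% had reads, 33 in total. The counts were therefore assigned by strand. Gm37376, a gene model of 453 bases on the plus strand (GRCm38, chromosome 19, 5801941 to 5802393), lies inside the single exon of the longest Malat1 transcript, on the other strand. It had 28101 to 55349 reads per library, and the ratio of its reads to those of Malat1 was 0.509 ± 0.0140 (SD, n = 15), between 0.474 and 0.531 in all libraries. Libraries high in one were high in the other. The kit used, for single cells and low input, does not mark strand, so reads of Malat1 and of Gm37376 cannot be told apart, and the same holds for every gene here that has a partner on the other strand. Reads that map opposite a gene without a partner there are then counted on no gene. The share counted on no gene, given above, can therefore include reads of genes, and this part was not measured.

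**Figure D2:**
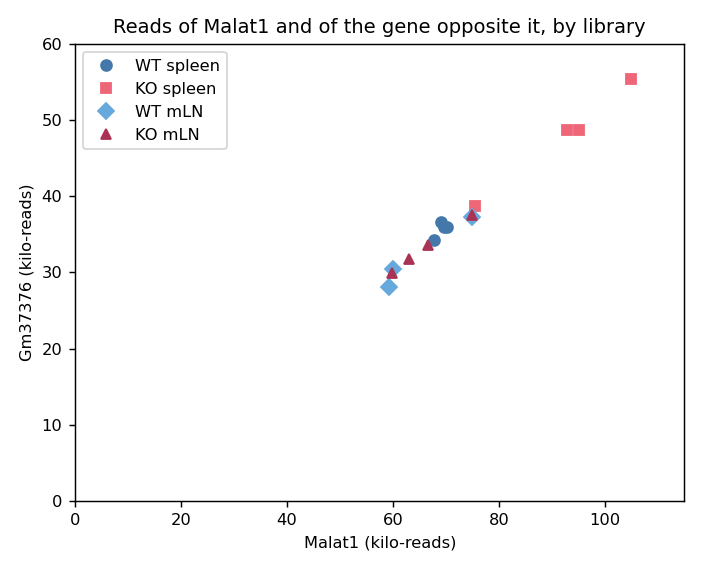
Reads counted on Gm37376 (y axis, kilo-reads) against reads counted on Malat1 (x axis, kilo-reads) in 15 libraries, with group by colour and shape and both axes from 0. The points lie along 1 line through the origin, at a ratio of 0.474 to 0.531.

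Neat1 (ENSMUSG00000092274, GRCm38 chromosome 19, 5824708 to 5845478, minus strand) was lower in KO than in WT T cells in both organs. Its long transcript is 1 exon over the whole gene, and a short transcript of 3004 bases ends within it. The 2 transcript ends are shown because they differ in the signal that leads to a poly(A) tail. The final 60 bases of each, 5′ to 3′ from GENCODE M21, carry in capitals the AATAAA polyadenylation signal in the short transcript, 14 bases before its end, and the runs of 4 or more A in the long one, which ends in a genome-encoded A-rich tract.
Neat1 short (chr19:5842307-5842366, minus strand): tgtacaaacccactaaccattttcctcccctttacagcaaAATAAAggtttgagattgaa
Neat1 long (chr19:5824708-5824767, minus strand): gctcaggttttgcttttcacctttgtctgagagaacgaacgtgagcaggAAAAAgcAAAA
The counts are 1 value per gene and do not separate the 2 transcripts.

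In spleen, Neat1 had 156.6, 142.1, 127.1 and 186.7 CPM in the WT libraries and 71.9, 89.4, 65.2 and 79.2 CPM in the KO libraries. The highest KO library was well below the lowest WT library. The fitted difference was -0.99 on the log2 scale (SE 0.12), and the KO mean was 0.499 times the WT mean, with an adjusted p of 0.0112 in edgeR's quasi-likelihood test. In the bulk RNA of a sorted population, less RNA per cell and fewer cells of a kind that holds it cannot be told apart. Neat1 was 1 of the 8 genes called in spleen, where 1.3% of the 14254 genes tested were called, 0.751% lower and 0.547% higher. It stayed past the threshold whichever library was left out, with differences of -1.06 to -0.88.

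In mLN, Neat1 had 117.6, 97.8 and 153.5 CPM in the WT libraries and 52.9, 61.8, 46.1 and 47.4 CPM in the KO libraries. Again the groups did not overlap, and the KO mean was 0.423 times the WT mean. The difference was -1.25 (SE 0.16, adjusted p = 0.0173, edgeR). Neat1 and Dleu2 were the 2 genes of the 8 called in mLN, against 0.641% of 14359 genes, of which 0.292% were lower and 0.348% higher. This call was less secure than the size of the difference. Without WT mLN library 4 the difference was -1.06 with an adjusted p of 0.0799, without KO library 3 it was -1.20 with 0.0558, and without KO library 4 it was -1.20 with 0.0562.

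Markers of other cells also moved with genotype. The summed level of 4 NK cell markers was higher in all KO than in all WT libraries, at 89.0 to 105 against 49.9 to 71.2 CPM in spleen and 72.9 to 122 against 42.3 to 57.5 CPM in mLN. Of the 3 tested, 1 was called in each organ, Eomes, which activated T cells also express, at 0.93 (adjusted p = 0.0444) and 1.13 (adjusted p = 0.0422), while Klrb1c, an NK receptor gene, was called in neither, at -1.02 (SE 0.43) and -1.69 (SE 0.42). The 6 erythroid markers summed to 93.6 to 1888 CPM in WT spleen and 41.8 to 106 CPM in KO spleen, and to 20.8 to 798 and 17.8 to 71.1 CPM in mLN, with 0 called in edgeR, all 6 in spleen and all 5 tested in mLN at an unadjusted p under 0.05, and 6 and 0 called by DESeq2. Of the stromal markers, the smooth muscle gene Acta2 was higher in KO in both organs (1.60, adjusted p = 0.0448, and 2.67, adjusted p = 0.0326) and Myh11 was higher in KO mLN (4.63, adjusted p = 0.0326), while the sum of the 7 overlapped between genotypes in each organ. Their part in the Neat1 differences was not tested.

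Between organs, Neat1 was lower in mLN than in spleen for KO cells, by -0.55 (SE 0.12, adjusted p = 0.00602, edgeR), with all 4 mLN libraries below all 4 spleen libraries. WT cells gave -0.27 (SE 0.17, adjusted p = 0.285) and overlapping ranges. WT samples with the same number deviated together, and with the number as a block the WT difference was -0.36 with an adjusted p of 0.00776. The summed level of 10 myeloid markers was 229 to 670 CPM in KO spleen and 96.5 to 113 CPM in KO mLN. Of the 8 tested, 6 were lower in KO mLN, beside 13.9% of all genes called lower. Between genotypes these markers overlapped, with 257 to 666 CPM in WT spleen and 108 to 245 CPM in WT mLN. Their part in the Neat1 difference between organs was not tested.

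The protein partners of Neat1 gave no call between genotypes. Of 16 paraspeckle protein genes tested in edgeR, 0 were called in either organ, with 3 in spleen and 2 in mLN at an unadjusted p under 0.05 and 0 called by DESeq2. Their median log2 difference was 0.04 in spleen and 0.11 in mLN, beside 0.00 over all genes tested in both. Matr3, an RNA-binding protein of the nuclear matrix, gave -0.19 in both organs (SE 0.07, adjusted p = 0.169 in spleen, and SE 0.09, adjusted p = 0.320 in mLN), and Rbm14 gave 0.43 in spleen (SE 0.14, adjusted p = 0.129). Pspc1, which binds RNA in paraspeckles, had 59.5 ± 6.91 CPM in WT mLN and 47.6 ± 4.58 CPM in KO mLN (adjusted p = 0.225). Between organs the called share was 12.5% in WT and 31.2% in KO cells, beside 20.5 and 25.3% of all genes. In KO cells 5 of 16 were lower in mLN and 0 higher, namely Dazap1 (-0.78), Taf15 (-0.42), Cpsf6 (-0.24), Sfpq (-0.43) and Rbm14 (-0.41), and in WT cells 2 were lower, Dazap1 (-0.58) and Cpsf6 (-0.45). The medians over all 16 were -0.05 in KO and -0.07 in WT cells.

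Neat1 is also known as a transcript that responds to stress, and genes that respond within minutes to stimulation or handling differed between the groups. In spleen 3 of 10 tested were higher in KO and 0 lower, Fos from 40.8 ± 16.9 to 148 ± 28.5 CPM, Fosb from 6.78 ± 3.66 to 28.2 ± 5.48 CPM and the heat shock gene Hspa1a from 0.328 ± 0.204 to 24.2 ± 25.9 CPM. In mLN 2 of 11 were lower in KO and 0 higher, Junb by -0.87 and Ier2 by -0.50. The genes called in spleen thus moved opposite to Neat1 and those called in mLN moved with it. Of all tested, 7 were positive and 3 negative in spleen, and 4 were positive and 7 negative in mLN. At an unadjusted p under 0.05 in edgeR were 6 in spleen and 8 in mLN, and DESeq2 called 5 and 4. Over all genes 1.3% were called in spleen and 0.641% in mLN. The 12 on the list summed to 1312 to 2044 CPM in WT spleen and 1721 to 1755 CPM in KO spleen, which overlap. In mLN they summed to 1088 to 1726 CPM in WT and 874 to 1063 CPM in KO, which do not overlap. The part of handling in the Neat1 difference was not tested. Between organs in KO cells, where Neat1 and Malat1 were called lower in mLN, 7 of 11 of these genes were lower and 1 higher. Over all genes 13.9% were lower and 11.4% higher. The median of the list was -1.04, and the 12 on it summed to 1721 to 1755 CPM in spleen and 874 to 1063 CPM in mLN. Their part in that difference was likewise not tested.

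**Figure D3:**
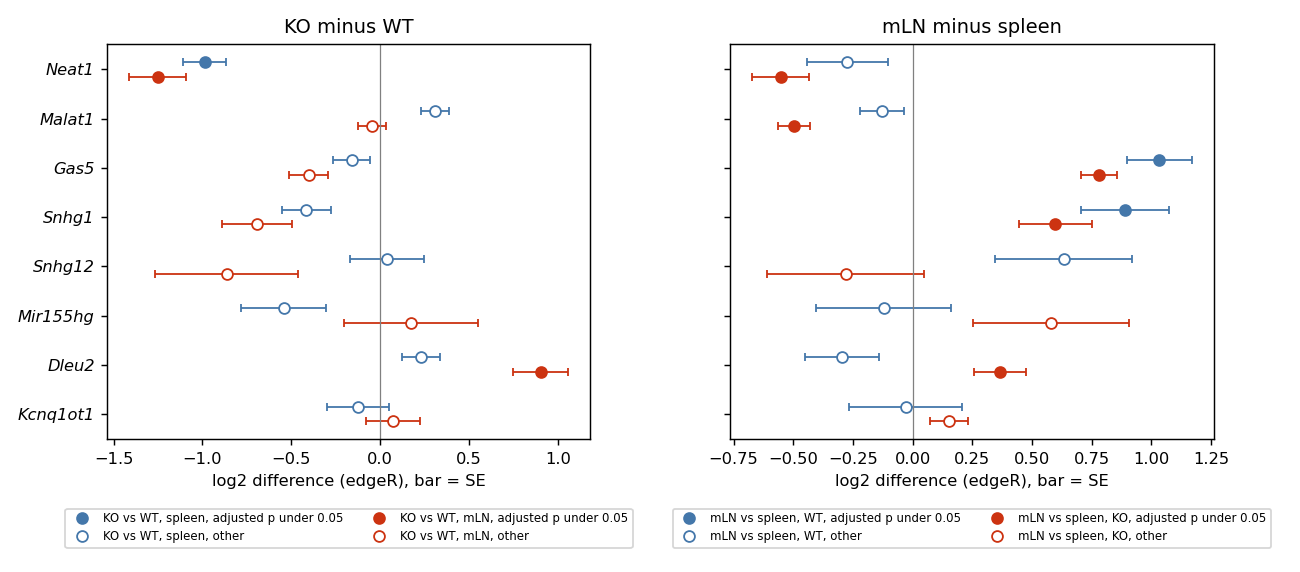
Fitted log2 difference (x axis) of the 8 genes (y axis), KO minus WT in spleen and mLN on the left and mLN minus spleen in WT and KO cells on the right. Bars are SE and filled points are past an adjusted p of 0.05 in edgeR. Neat1 is at -0.99 and -1.25 on the left, and Gas5 and Snhg1 lie between 0.60 and 1.03 on the right.

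Malat1 (ENSMUSG00000092341, GRCm38 chromosome 19, 5795690 to 5802672, minus strand) lies 22036 bases from Neat1 and was called between genotypes in neither organ. Its longest annotated transcript of 6983 bases holds a run of 12 A, shown with 20 bases on each side since priming on oligo(dT) can begin at such a run. By the annotation the run begins 6674 bases into the transcript and leaves 298 bases after it. The end of the run and the gcaaaa after it equal the last bases of the long Neat1 transcript shown above. Counts of 1 value per gene do not show whether the RNA in these cells ends near the run or beyond it.
Malat1 (chr19:5795968-5796019, minus strand, the A run in capitals): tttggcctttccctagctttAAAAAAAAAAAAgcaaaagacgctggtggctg

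In spleen the WT libraries had 7342, 7370, 6604 and 6795 CPM of Malat1 and the KO libraries 7928, 9383, 8730 and 8421 CPM. All KO libraries lay above all WT libraries, by 0.31 on the log2 scale (SE 0.08), with an adjusted p of 0.0718 in edgeR that did not pass and of 0.00141 in DESeq2 that did. In mLN the WT libraries had 6924, 5925 and 5908 CPM and the KO libraries 5677, 6107, 5927 and 6686 CPM. These ranges overlapped and the difference was -0.05 (SE 0.08, adjusted p = 0.823). Malat1 was lower in mLN than in spleen for KO cells, by -0.50 (SE 0.07, adjusted p = 0.000373) with no overlap, while WT cells gave -0.13 (SE 0.09, adjusted p = 0.364). Gm37376 gave 0.32 for KO against WT in spleen (adjusted p = 0.0755), -0.02 in mLN (adjusted p = 0.930) and -0.55 for mLN against spleen in KO cells (adjusted p = 0.000277). Adding its reads to those of Malat1, an alternative chosen after seeing the data, gave 0.31 in spleen (adjusted p = 0.0782) and changed no call.

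Of 15 nuclear speckle protein genes, 0 were called between genotypes in spleen in edgeR, with 5 at an unadjusted p under 0.05 and 3 called by DESeq2. In mLN the splicing factor Srsf5 was lower in KO (-0.53, SE 0.09, adjusted p = 0.0326) and Srsf7 was higher (0.60, SE 0.11, adjusted p = 0.0387), and the median of the 15 was 0.07 beside 0.00 over all genes. Between organs 4 were lower and 3 higher in KO mLN, and 2 were lower and 2 higher in WT mLN, which is 46.7 and 26.7% called beside 25.3 and 20.5% of all genes. The speckle scaffolds Srrm2 and Son were lower in mLN in both genotypes, by -0.27 and -0.26 in WT and by -0.30 and -0.21 in KO cells, and Srsf1 and Srsf2 were higher in both.

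Gas5, Snhg1 and Snhg12 were compared as hosts of snoRNAs. Gas5 (ENSMUSG00000053332, chromosome 1, 161034422 to 161038539, plus strand), Snhg1 (ENSMUSG00000108414, chromosome 19, 8723475 to 8726443, plus strand) and Snhg12 (ENSMUSG00000086290, chromosome 4, 132308623 to 132311024, plus strand) hold 10, 8 and 5 annotated snoRNA genes on their own strand. These 23 snoRNA genes had 0 reads in all 15 libraries. All of them lie within annotated exons of their host, so that reads over them count as ambiguous, and the zeros say nothing of snoRNA levels. Such hosts are known for starts rich in C and T, the terminal oligopyrimidine tract that ties their translation to nutrients and mTOR. The 50 bases from 10 before each RefSeq start (GRCm38.p6, plus strand) are shown for this reason, with capitals for the longest stretch of at least 6 C or T that begins from 5 bases before to 10 bases after the start.
Gas5 (chr1:161035156-161035205): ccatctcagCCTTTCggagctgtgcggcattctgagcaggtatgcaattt
Snhg1 (chr19:8723477-8723526): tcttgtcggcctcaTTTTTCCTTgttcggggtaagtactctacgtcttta
Snhg12 (chr4:132308668-132308717): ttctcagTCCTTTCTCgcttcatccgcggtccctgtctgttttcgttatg
Such a stretch, read on the strand of the gene, was found at 17.1% of the 32851 starts in the RefSeq table and at 9 of the 19 starts of snoRNA hosts (47.4%). An upstream Gas5 start in the table, within chr1:161034591-161034640, had none.

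Both Gas5 and Snhg1 were higher in mLN than in spleen, in WT and in KO cells. Gas5 had 126.3, 165.1, 152.9 and 127.1 CPM in WT spleen and 267.0, 343.3 and 245.1 CPM in WT mLN. It had 119.0, 118.2, 134.0 and 134.3 CPM in KO spleen and 225.4, 223.8, 208.8 and 209.8 CPM in KO mLN. No mLN library reached down to a spleen library of its genotype, and Gas5 in mLN was 1.996 times the spleen mean in WT and 1.72 times in KO cells. The log2 differences were 1.03 (SE 0.13, adjusted p = 0.00120) and 0.78 (SE 0.08, adjusted p = 3.85e-05) in edgeR.

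Snhg1 had 10.9, 15.2, 13.4 and 12.8 CPM in WT spleen and 18.2, 29.9 and 22.7 CPM in WT mLN. In KO cells it had 10.1, 9.56, 8.56 and 10.6 CPM in spleen and 12.8, 14.0, 14.2 and 17.7 CPM in mLN. The organs did not overlap in either genotype, and the differences were 0.89 (SE 0.18, adjusted p = 0.0101) and 0.60 (SE 0.15, adjusted p = 0.0142). Gas5 and Snhg1 were the 2 of the 8 genes called in WT cells between organs, against 20.5% of 14515 genes, of which 10.8% were lower and 9.7% higher. With the replicate number as a block, 3 of the 8 were called there, Neat1 in addition, and 4351 genes. In KO cells 5 of the 8 were called, Gas5, Snhg1 and Dleu2 higher and Neat1 and Malat1 lower in mLN, against 25.3% of 14240 genes, of which 13.9% were lower and 11.4% higher. Snhg12 rests on 17 to 87 reads per library, ranged from 1.53 to 8.60 CPM with overlap between all groups compared, and was called in no comparison. Its largest difference was -0.86 for KO against WT in mLN (SE 0.40, adjusted p = 0.331).

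Some cell markers were called between organs too, beside 20.5% of all genes called in WT and 25.3% in KO cells. Of 12 T cell markers 3 were higher in mLN in WT cells, a share of 25% that is near that of all genes. In KO cells 7 were higher and 1 lower, or 66.7%. Of the myeloid markers tested, 3 of 9 in WT and 6 of 8 in KO cells were lower. In KO cells 1 of 2 CD8 markers, 1 of 3 B cell markers and 3 of 5 stromal markers were also higher in mLN. Of 4 dendritic cell markers 2 were higher and 1 lower there. These last lists hold too few tested genes to set their shares beside that of all genes. The mitochondrial share of gene reads did not overlap between organs, at 1.02 to 1.43% in WT spleen against 0.842 to 0.951% in WT mLN, and at 0.975 to 1.09% against 0.758 to 0.864% in KO cells. The part of these values in the organ differences of Gas5, Snhg1, Malat1 and Neat1 was not tested.

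Between genotypes the 3 hosts gave no call. All KO libraries of Snhg1 lay below all WT libraries in both organs, at -0.42 (SE 0.14, adjusted p = 0.132) in spleen and -0.69 (SE 0.20, adjusted p = 0.136) in mLN. For Gas5 this held in mLN, at -0.40 (SE 0.11, adjusted p = 0.125), and in spleen the difference was -0.16 (SE 0.10, adjusted p = 0.407). In mLN these values passed in DESeq2, with adjusted p of 0.0268 for Gas5 and 0.0453 for Snhg1, and without a filter on low counts, with 0.0082 and 0.0455, and Snhg1 also passed with all 15 samples in 1 fit (adjusted p = 0.0356).

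Other snoRNA hosts were called in the same direction as Gas5 between organs. Of 17 hosts with a read, 15 were tested, and 8, Gas5 and Snhg1 among them, were higher and 1 lower in mLN in WT cells, with a median difference of 0.69 beside 0.00 over all genes. In KO cells 8 were likewise higher and 1 lower, with a median of 0.45 beside 0.01. Over all genes 9.7% were called higher and 10.8% lower in WT cells, and 11.4 and 13.9% in KO cells. Zfas1 rose by 1.24 in WT and 0.75 in KO cells, and Snhg6 by 0.79 and 0.99. Snhg3, whose gene lies 36990 bases from Snhg12, rose by 0.71 and 0.69. Snhg14, the long host in the Prader-Willi region, was the exception at -0.76 in WT and -0.87 in KO cells. Between genotypes 0 of the 15 were called in either organ in edgeR, with 4 in spleen and 7 in mLN at an unadjusted p under 0.05 and 1 and 2 called by DESeq2, and the medians were -0.16 and -0.40.

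**Figure D4:**
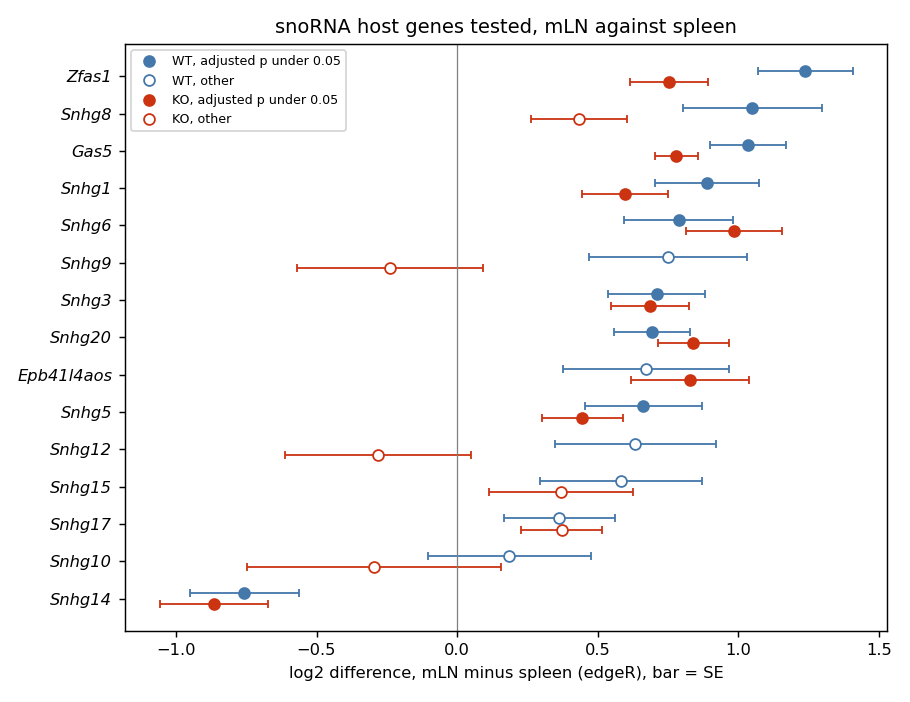
Fitted log2 difference between mLN and spleen (x axis) of the 15 snoRNA host genes tested (y axis) in WT and KO cells. Bars are SE and filled points are past an adjusted p of 0.05 in edgeR. In each genotype 8 hosts are called higher in mLN and Snhg14 is called lower.

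Nonsense-mediated decay factors were tested since they act on these transcripts. In WT cells 6 of 15 were lower and 4 higher in mLN, and in KO cells 7 were lower and 4 higher, or 66.7 and 73.3% called beside 20.5 and 25.3% of all genes. The members lower in both genotypes included the effector Smg5 (-0.94 in WT and -0.89 in KO) and the kinase Smg1 (-0.40 and -0.52). The helicase Upf1 (0.58 and 0.49) and the exon junction proteins Eif4a3, Rbm8a and Magoh were higher in both. Between genotypes 0 of 15 were called in edgeR and in DESeq2 in either organ, with 6 in spleen and 1 in mLN at an unadjusted p under 0.05.

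Of the 2 microRNA hosts, Dleu2 was called in 2 comparisons and Mir155hg in none. Their mature products from RefSeq are shown 5′ to 3′ with the seed, bases 2 to 8, in capitals, because miR-15a and miR-16 share a seed and hence many targets, while that of miR-155 differs.
miR-155-5p (in Mir155hg, chr16:84714143-84714165): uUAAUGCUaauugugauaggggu
miR-15a-5p (in Dleu2, chr14:61632075-61632096): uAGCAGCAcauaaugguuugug
miR-16-5p (in Dleu2, chr14:61631936-61631957): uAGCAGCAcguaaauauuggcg
The hairpin gene Mir155 lies in an exon of its host and had 0 reads, and the 2 hairpin genes in Dleu2 had 5 reads in all libraries together, so the data speak of the hosts only.

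Dleu2 (ENSMUSG00000097589, chromosome 14, 61602839 to 61682373, minus strand) was higher in KO than in WT cells in mLN. It had 103.3, 73.9 and 83.7 CPM in WT mLN and 129.4, 154.9, 173.8 and 198.7 CPM in KO mLN. The KO libraries all lay above the WT libraries, at 1.89 times the mean, with a difference of 0.90 (SE 0.16, adjusted p = 0.0382, edgeR). This call was lost with 1 of 5 libraries left out, at an adjusted p of 0.148 without WT library 2, 0.141 without WT library 4, and 0.0663, 0.0903 and 0.0861 without KO library 2, 3 or 4, while the difference stayed between 0.79 and 1.05. In spleen Dleu2 had 119.7, 90.1, 124.3 and 103.7 CPM in WT and 125.3, 123.0, 135.2 and 125.1 CPM in KO libraries. Those ranges overlapped, with a difference of 0.23 (SE 0.11, adjusted p = 0.265).

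Between organs Dleu2 was higher in KO mLN than in KO spleen by 0.37 (SE 0.11, adjusted p = 0.0287), with overlapping ranges, and the call was lost without KO spleen library 1, 2 or 4 or KO mLN library 3 or 4, at adjusted p of 0.0585 to 0.0829. In the same contrast 25.3% of all genes were called. The CD8 markers summed to 1.61 to 4.34 CPM in spleen and 18.9 to 28.2 CPM in mLN, with 1 of 2 called higher. In addition 3 of 4 dendritic cell and 3 of 5 stromal markers were called. Their part was not tested. In WT cells the difference was -0.29 (SE 0.16, adjusted p = 0.212). The largest of 4 genes on the other strand wholly inside Dleu2 exons, Gm26916, had a mean of 12.9 CPM and a KO against WT difference of 0.82 in mLN (SE 0.22, adjusted p = 0.122). With the reads of all 4 added, Dleu2 gave 0.89 in mLN with an adjusted p of 0.0364. The 2 CD8 markers summed to 7.18 to 11.6 CPM in WT mLN and 18.9 to 28.2 CPM in KO mLN, with 0 of 2 called (1 at an unadjusted p under 0.05, 0 by DESeq2). Of the NK cell markers above, Eomes was higher in KO mLN, as Dleu2 was, while Klrb1c went the other way and was not called. The smooth muscle genes Acta2 and Myh11 were higher in KO mLN too. The 6 dendritic cell markers summed to 20.4 to 28.5 CPM in WT mLN and 30.3 to 46.3 CPM in KO mLN, with 0 of 4 called in edgeR, 2 at an unadjusted p under 0.05 and 1 called by DESeq2. Of 3 B cell markers tested 1 was higher in KO mLN, Pax5 (0.132 ± 0.115 in WT and 2.998 ± 1.20 CPM in KO, adjusted p = 0.0372), and the T cell markers summed to 10551 to 11238 CPM in WT and 11239 to 11739 CPM in KO mLN. The part of these markers in the Dleu2 difference was not tested.

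Of 9 reported targets of miR-15/16, 0 were called between genotypes in edgeR, with 4 in spleen and 3 in mLN at an unadjusted p under 0.05 and 2 and 1 called by DESeq2. The survival gene Bcl2 had 481 ± 117 CPM in WT mLN and 339 ± 46.4 CPM in KO mLN (adjusted p = 0.150), and 358 ± 119 against 204 ± 39.2 CPM in spleen (adjusted p = 0.0880). While Bcl2 was lower in KO, most of the 9 were not. In mLN 8 were positive and 1 negative, and in spleen 6 were positive and 3 negative. The median of the 9 was 0.21 in mLN and 0.22 in spleen. Between organs in KO cells Bcl2 was higher in mLN (0.73, adjusted p = 0.00170), as was the cyclin gene Ccnd1 (1.28, adjusted p = 0.00873), and Ccnd3 was lower (-0.44, adjusted p = 0.00401). This is 33.3% of the 9, near the 25.3% called over all genes. In WT cells 0 were called, with 1 at an unadjusted p under 0.05 and 1 called by DESeq2, beside 20.5% of all genes.

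Mir155hg (ENSMUSG00000097418, chromosome 16, 84703167 to 84715245, plus strand) rested on 33 to 120 reads per library. Its KO spleen libraries, 4.10 to 4.70 CPM, lay just below those of WT spleen, 4.71 to 9.77 CPM, with a difference of -0.54 (SE 0.24, adjusted p = 0.235). In mLN it ranged from 5.34 to 6.58 CPM in WT and from 2.97 to 10.7 CPM in KO libraries, and the difference was 0.17 (SE 0.38, adjusted p = 0.866). Between organs it gave -0.12 in WT (SE 0.28, adjusted p = 0.800) and 0.58 in KO cells (SE 0.33, adjusted p = 0.222), where it ranged from 0.26 to 0.83 with 1 library left out and passed without KO mLN library 1 (adjusted p = 0.0356). Of 11 reported miR-155 targets 1 was called between genotypes in each organ, Ifngr1, the ligand-binding chain of the interferon-γ receptor. It fell from 1218 ± 83.5 to 599.6 ± 65.9 CPM in spleen (-1.01, SE 0.10, adjusted p = 0.00245) and from 1715 ± 104 to 795 ± 234 CPM in mLN (-1.12, SE 0.19, adjusted p = 0.0326). Over all genes 1.3% were called in spleen and 0.641% in mLN. Of the list, 2 in spleen and 5 in mLN had an unadjusted p under 0.05 in edgeR, and DESeq2 called 1 and 3. The medians of the list were -0.12 and -0.16. Between organs the transcription repressor Bach1 was lower in mLN in both genotypes (-1.03 in WT and -1.15 in KO), Peli1 was higher in both (0.66 and 0.44), and in all 2 were lower and 2 higher in WT and 5 lower and 2 higher in KO cells, or 36.4 and 63.6% called beside 20.5 and 25.3% of all genes.

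Kcnq1ot1 (ENSMUSG00000101609, chromosome 7, 143203458 to 143296549, minus strand) is annotated as 1 exon of 93092 bases and was called in no comparison. WT spleen had 165.5, 129.1, 127.8 and 242.0 CPM, KO spleen 163.0, 153.6, 148.2 and 138.5 CPM, WT mLN 132.6, 136.9 and 204.9 CPM and KO mLN 143.3, 167.0, 175.3 and 184.8 CPM. All ranges compared overlapped, with log2 differences of -0.12 to 0.15. Without KO mLN library 1 the difference between organs in KO cells was 0.22 and passed (adjusted p = 0.0435). The WT library numbered 4 was the highest of its group in both organs, for Kcnq1ot1 and also for Neat1. These 2 libraries also had the largest mitochondrial share and the largest share of reads counted on no gene in their groups. Without WT spleen library 4 the KO against WT difference of Kcnq1ot1 turned from -0.12 to 0.11, and that of Neat1 was -0.88 (adjusted p = 0.0110).

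Kcnq1, the potassium channel gene whose intron gives rise to Kcnq1ot1 on the other strand, had 0 to 10 reads per library. Of 12 genes of its imprinted domain with a read 6 were tested. Between genotypes 0 were called in edgeR, with 0 in spleen and 2 in mLN at an unadjusted p under 0.05 and 0 and 1 called by DESeq2. In KO cells Cd81, a tetraspanin gene at the edge of the domain, was lower in mLN than in spleen (-1.14, SE 0.24, adjusted p = 0.00524) and Tspan32 was higher (0.69, SE 0.15, adjusted p = 0.00686). This is 33.3% of the 6, near the 25.3% called over all genes. In WT cells 0 of the 6 were called, with 1 at an unadjusted p under 0.05 and 0 called by DESeq2.

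**Figure D5:**
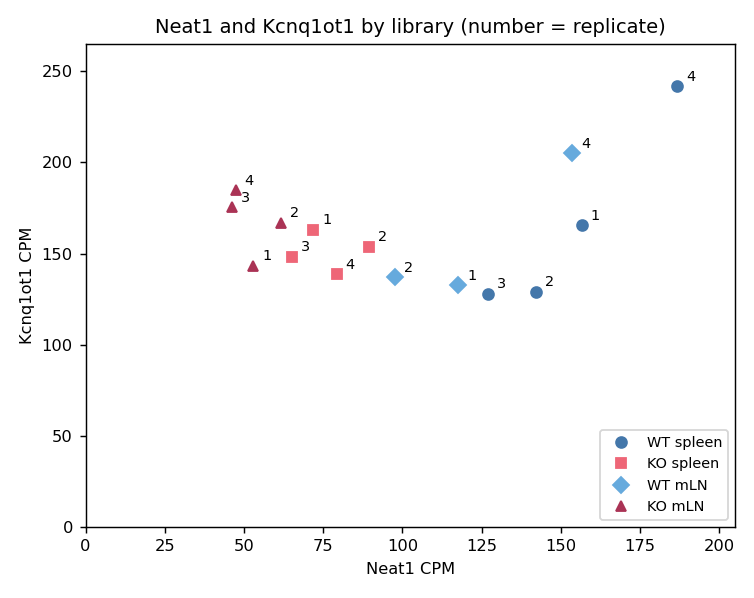
Kcnq1ot1 (y axis, CPM) against Neat1 (x axis, CPM) in the 15 libraries, with group by colour and shape, the replicate number beside each point and both axes from 0. KO libraries lie at the left, below 90 CPM of Neat1, and the WT libraries numbered 4 stand at the top right at 242.0 and 204.9 CPM of Kcnq1ot1.

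The test of whether the KO against WT difference itself differed between organs called none of the 8 genes and 0 of 15438 genes in edgeR, with 652 at an unadjusted p under 0.05 and 4 called by DESeq2, so the percentage called was 0. The Neat1 estimate, mLN minus spleen, was -0.27 (SE 0.21, unadjusted p = 0.230). That its KO against WT difference varied between the organs was therefore not shown. The smallest unadjusted p among the 8 were those of Dleu2, at 0.67 (SE 0.20, unadjusted p = 0.00417), and Malat1, at -0.36 (SE 0.11, unadjusted p = 0.00501), both with an adjusted p of 0.9998.

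No neighbour of the 8 genes was called between genotypes. Of the tested genes within 50 kb that are not of the set, 0 of 40 in spleen and 0 of 43 in mLN were called in edgeR, with 9 and 5 at an unadjusted p under 0.05 and 2 and 2 called by DESeq2. Between organs 4 of 39 were lower and 4 higher in WT mLN, and 2 of 42 lower and 6 higher in KO mLN, a share near or below the 20.5 and 25.3% called over all genes. Slc3a2, an amino acid transporter subunit whose gene starts 106 bases from Snhg1, was higher in WT mLN (0.41, adjusted p = 0.0350) and gave 0.23 in KO cells (adjusted p = 0.0697), and Wdr74, also beside Snhg1, was higher in both (0.36 and 0.41).

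Across all 15 libraries, the genes most like each of the 8 in log2 CPM were described by Pearson's r over 15438 genes, which share library, depth and group. Neat1 was closest to Klhl12 (r = 0.952), Olfr525 (0.938) and the immediate early gene Ier2 (0.936). Malat1 was closest to Gm37376 (0.992) and Dleu2 had Gm26916 (0.928) in its first 3, the genes that face them on the other strand. Gas5 was closest to Ccdc84 (0.965) and Tmem50a (0.964), and Snhg1 to the host gene Snhg3 (0.945). Kcnq1ot1 was closest to Gm20342 (0.895) and the mitochondrial gene mt-Nd4 (0.848), Mir155hg to Vamp1 (0.832) and Snhg12 to Thumpd2 (0.894).

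Among the other long noncoding RNAs set beside the 8, 2 of 15 tested were lower in KO spleen and 0 higher, the microRNA hosts Mir17hg (-1.11, SE 0.22, adjusted p = 0.0444) and Mir22hg (-1.02, SE 0.20, adjusted p = 0.0453). In mLN 0 of 14 were called in edgeR, with 5 at an unadjusted p under 0.05 and 1 called by DESeq2, and Mir22hg gave -1.06 (SE 0.36, adjusted p = 0.199). Between organs 4 of 15 were lower and 1 higher in WT mLN, and 5 of 14 were lower and 4 higher in KO mLN. This is 33.3 and 64.3% called, beside 20.5 and 25.3% of all genes. Tug1, a nuclear transcript, was lower in mLN in both genotypes, from 289 ± 24.5 to 151 ± 11.5 CPM in WT and from 248 ± 29.3 to 150 ± 18.8 CPM in KO cells. Mir142hg was higher in both, by 0.78 and 0.90. Over the whole class, 14 of 1575 long noncoding RNA genes tested were lower in KO spleen and 4 higher, and in mLN 4 of 1629 were lower and 4 higher, with Neat1 among the 14 and among the 4. The class was thus called at 1.14 and 0.491%, beside 1.3 and 0.641% of all genes. Between organs it was called at 12.1% in WT and 17.9% in KO cells, beside 20.5 and 25.3% of all genes.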

How the data were processed

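Counts of reads per gene from 15 libraries of sorted CD4+ T cells were analysed as the authors deposited them. Per the methods and the labels, libraries were made with the NEBNext single cell and low input kit, read as single ends and aligned with STAR 2.6.1a to GRCm38 with a GENCODE annotation, and the authors tested with DESeq2 1.22.2. The strand setting is not given in the sources used here. Rows for unmapped, multimapping, unassigned and ambiguous reads (67.4 to 70.3% of all reads) were left out. Symbols, exons and coordinates came from GENCODE M21 on the same build, which matched 55240 of 55421 identifiers.

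CPM are counts per 1e6 gene reads. Each comparison was fitted in edgeR 4.0.16 on its own groups (filterByExpr, TMM, quasi-likelihood test, Benjamini-Hochberg over all genes tested), and called means an adjusted p under 0.05. Depth was 9363940 to 11283439 gene reads. Alternatives were DESeq2 1.42.0, other scalings (RLE, plain totals), other filters (none, or a minimum of 10 counts throughout), a joint fit of the 15 samples, a block for replicate number, leaving each sample out, and transcript lengths in place of exon unions. The steps were tested on simulated data. WT spleen and mLN samples with the same number deviated together (r of 0.258, 0.243 and 0.291), so the numbers may pair them. Elsewhere same-numbered samples did not do so throughout. The main fits, their counts of genes called and the figures used no block in any comparison. Values with the number as a block are given as an alternative and named as such. The 8 genes and all lists were chosen with earlier results of these data known. Beside the 8, the genes named were, in each list, those past the threshold or among the 3 smallest p in a comparison, neighbours within 50 kb past the threshold, the 3 genes most correlated with each, and the 5 most abundant long noncoding RNAs. Some genes that this rule names are not reported here.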

Additional observations from a re-analysis of the deposited data

How the results depend on the processing

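All tests rest on 3 or 4 samples a group, and Snhg12, Mir155hg and Snhg1 on as few as 17, 33 and 91 reads in a library. The Neat1 difference kept its direction in every fit and, in spleen, stayed past the threshold in every fit. With DESeq2 the members called were 2 in spleen (Neat1 and Malat1) and 4 in mLN, and genes called were 823, 590 and, for the interaction, 4. With no filter on low counts these were 2 and 4 members and 1422, 913 and 112 genes, and for the interaction 1 member, Dleu2 (0.66, adjusted p = 0.00632). With all 15 samples in 1 fit, 85 genes were called in spleen and 500 in mLN, with 3 members in mLN, Snhg1 in addition. The cause of these changes was not tested.

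With the replicate number as a block, 17 genes were called between genotypes in spleen, 1 gene and 0 members in mLN and 3 for the interaction. In that fit Neat1 in mLN was -1.18 (adjusted p = 0.117), Dleu2 0.87 (adjusted p = 0.176), and Mir155hg between organs in WT turned to 0.16. Each recipient was given either WT or KO cells, so a WT and a KO sample cannot come from the same recipient. What a number shared between genotypes stands for is not stated, so the block between genotypes may rest on an arbitrary number. Same-numbered WT and KO samples correlated at r of -0.210 to 0.146. By these correlations the numbers gave no clear pairing of KO spleen with KO mLN samples (r of 0.0258 to 0.259). Still, 2 of 4 KO spleen and 3 of 4 KO mLN samples correlated best with their own number, a hint from the data only. Within KO cells, a weak correlation does not show that the recipients differed. The block changed no call of the 8 genes other than Neat1 and Dleu2 between genotypes in mLN and Neat1 between organs in WT.

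With each sample left out in turn, genes called ranged from 12 to 324 in spleen (lowest without KO library 2, highest without WT library 3), from 4 to 117 in mLN (without WT library 4 and KO library 1), where 0 to 2 members were called, and from 1816 to 2780 between organs in WT (lowest without spleen library 1). In mLN, Neat1 ranged from -1.40 to -1.06 and Dleu2 from 0.79 to 1.05, and Dleu2 between organs in KO from 0.27 to 0.47. Signs turned for values that were not called: Snhg12 (-0.064 to 0.13) and Kcnq1ot1 (-0.23 to 0.11) in spleen, Malat1 (-0.094 to 0.040), Mir155hg (-0.14 to 0.41) and Kcnq1ot1 (-0.034 to 0.30) in mLN, Mir155hg (-0.25 to 0.17) and Kcnq1ot1 (-0.26 to 0.20) between organs in WT, and Kcnq1ot1 (-0.036 to 0.42) for the interaction. Leaving out WT number 4 from both organs, chosen after seeing the data, gave Neat1 -0.37 (adjusted p = 0.0983) and Gas5 1.07 (adjusted p = 0.00461) between organs in WT.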
